A study of Mus musculus with 11 samples.

Results

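Ccl1, Ccl3, Ccl4, Ccl5 and Xcl1 are 5 chemokine genes that activated T cells transcribe, and their reads were followed here in precursor exhausted CD8+ T cells after LAG-3 blockade. The 5 genes were taken by symbol from the 32469 symbols of the deposited count table. All 5 passed the filter on low counts, along with 6949 genes in total. Ccl1 was chosen by its spread between libraries and by its result in the contrast between the groups, with these data in view, so its values in that contrast describe what it was chosen by and are no test of it.

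Bulk RNA-seq libraries were made from 11 wild-type C57BL/6 mice bearing Lewis lung carcinoma (LLC), a transplanted mouse lung tumor line that had been injected under the skin of both flanks. There were 5 untreated mice, and 6 mice received the LAG-3 blocking antibody clone C9B7W (aLAG3) at 200 µg per mouse into the peritoneum on days 14 and 16. LAG-3 is an inhibitory receptor of exhausted T cells, and the comparison asked how its blockade changes the transcripts of the precursor exhausted cells in the tumor. The cells of both groups were sorted from within the CD8+PD-1+Ly108+TIM-3- fraction, no control antibody is named for the untreated mice, and the tumors were taken on day 18 by the study's methods but on day 21 by the description of the series.

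The libraries held between 313524 and 1901374 counts, and depth followed the primer barcode. The 6 deeper libraries carry barcode 9 (3 of each group), whereas aLAG3 libraries 8, 10 and 11 and untreated library 4 carry barcode 8 and untreated library 2 carries barcode 10. Levels are given as CPM, the counts of a gene scaled to the depth of the tested genes by TMM, and 95% Poisson intervals cover counting error only, since PCR copies were not removed by molecular identifiers. The 6 CD8 T cell markers (Cd8a, Cd8b1, Cd3d, Cd3e, Cd3g, Cd2) summed to between 5031 and 5295.7 CPM in untreated and between 5088 and 5584 CPM in aLAG3 libraries, which fits the label. Havcr2, which encodes TIM-3 and was sorted against, had 34 counts over all libraries. The 9 myeloid marker genes summed to 22.1 to 58.3 CPM in untreated and 23.6 to 149.9 CPM in aLAG3 libraries, with the highest sum in aLAG3 library 10.

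Chemokines are small secreted proteins that guide the movement of leukocytes through G protein-coupled receptors. CCL3 and CCL5 act on CCR1, and CCL3, CCL4 and CCL5 draw in T cells and myeloid cells. CCL1 is a ligand of CCR8, a receptor of regulatory T cells and other T cell subsets, and XCL1 acts on XCR1, which marks cross-presenting dendritic cells. T cell receptor signaling induces transcription of Ccl1, Ccl3, Ccl4 and Xcl1, while Ccl5 message is held by effector and memory CD8+ T cells. Xcl1 is known as a transcript of precursor exhausted CD8+ T cells.

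The coding sequences around the first cysteines of the mature proteins are shown because that motif defines the chemokine families to which the 5 genes belong. They were read from GENCODE transcripts of the mouse build GRCm38, 5′ to 3′ on the coding strand, and the capitals mark cysteine codons. Each stretch lies within exon 2 of a 3-exon transcript.
Ccl1: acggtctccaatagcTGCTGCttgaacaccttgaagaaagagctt
Ccl3: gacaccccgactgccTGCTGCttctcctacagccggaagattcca
Ccl4: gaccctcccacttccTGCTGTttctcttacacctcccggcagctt
Ccl5: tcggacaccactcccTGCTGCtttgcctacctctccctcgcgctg
Xcl1: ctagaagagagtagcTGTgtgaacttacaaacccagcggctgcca

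The 4 Ccl genes carry a pair of adjacent cysteine codons, the mark of CC chemokines, and Xcl1 has a single one at this place, the mark of the XC family. The Ccl1 stretch is at chr11:82178084-82178128 on the minus strand (codons 28 to 42). The Ccl3 stretch is at chr11:83648628-83648672 on the minus strand (codons 29 to 43), and the Ccl4 stretch is at chr11:83663467-83663511 on the plus strand (codons 29 to 43). The Ccl5 stretch is at chr11:83529218-83529262 on the minus strand (codons 28 to 42). The Xcl1 stretch is at chr1:164932948-164932992 on the minus strand (codons 27 to 41).

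The Ccl3 and Ccl4 genes are neighbors, with 13228 bases between them, and Ccl5 lies 117325 bases from Ccl3. Ccl3 and Ccl4 are also the most alike of the 10 pairs in coding sequence, at 71.4% identical aligned bases. The longest identical run in any aligned pair of coding sequences was 15 bases, and 0% of the 50-base stretches of the 4 Ccl genes occur in transcripts of other genes. For Xcl1, 10.8% of such stretches are shared with Gm20743, an annotated gene on the opposite strand. Whether counting used strand is not stated, so reads of Gm20743 could be among those of Xcl1.

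Because the genes differ in transcript length, levels were compared between them as CPM per kilobase, which presumes reads along the whole transcript. The primer barcode was joined at the template-switched end, so reads may come mainly from that end. Counts then need not scale with length, and the division may distort the comparison. Xcl1 stood highest at 2182 CPM per kilobase over all libraries, with the lowest library at 1859. Ccl5 followed at 1243 ± 353 CPM per kilobase (SD, n = 11), with its highest library at 1895. Ccl4 came next at 279 ± 59.6 CPM per kilobase (SD, n = 11). The mean of Ccl1 was 256 and its median 188 CPM per kilobase, so on this scale Ccl1 and Ccl4 did not separate beyond their spread. Ccl3 was lowest at 69.3 ± 18.1 CPM per kilobase (SD, n = 11). Without the division by length the means stood in the same order, with medians of 187 CPM for Ccl4 and 96.7 CPM for Ccl1. Within a library, the 5 genes together took 0.179% to 0.232% of all counts in untreated mice and 0.175% to 0.245% in aLAG3 mice.

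With edgeR's quasi-likelihood test, 0 of Ccl3, Ccl4, Ccl5 and Xcl1 passed the threshold of 0.05 (adjusted p = 0.998 for each). The background was the same, with 0% of the 6949 tested genes called (0 by edgeR's likelihood ratio test and 0 by DESeq2), and 297 genes (4.27%) at an unadjusted p under 0.05. The groups overlapped for all 5 genes, whereas they did not overlap for 33 genes (0.475%). Leaving out Ccl1, the fitted log2 fold change of aLAG3 over untreated was above 0 for 3 of 4 genes (Ccl3, Ccl4 and Xcl1, whose sign turned with the barcode as a covariate and within barcode 9) and below 0 for Ccl5, with a median of 0.087 beside 0.0041 over all tested genes. In bulk libraries of sorted cells, fewer cells that make a transcript and less transcript per cell cannot be told apart.

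**Figure D1:**
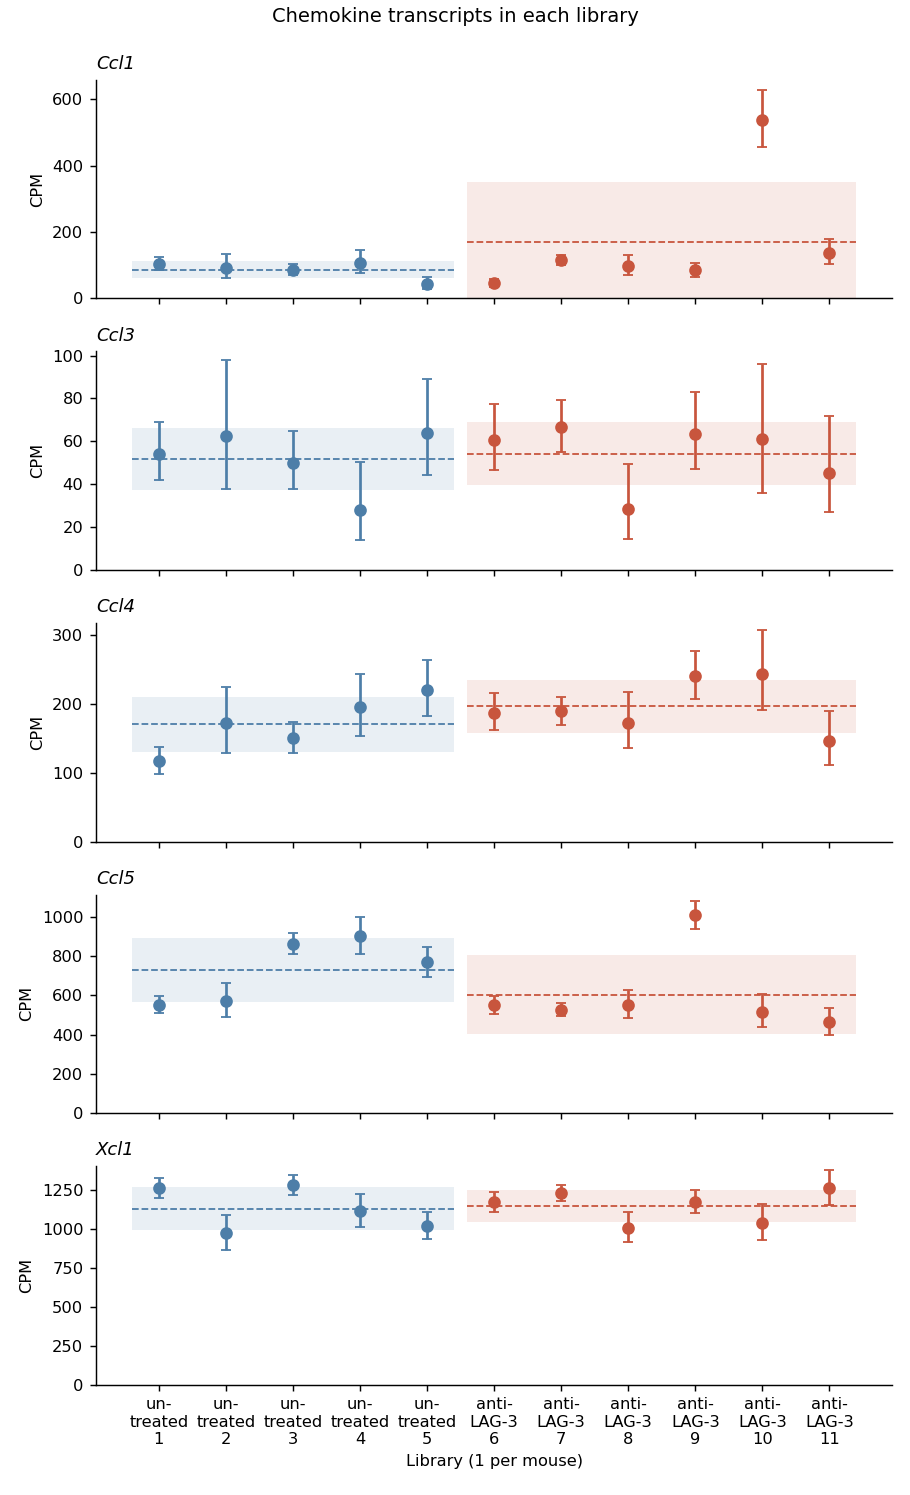
Level of each chemokine gene in every library (CPM, linear axes from 0), with points for libraries, vertical bars for 95% Poisson intervals of the count, dashed lines for group means and shaded bands for ± 1 SD. Ccl1 is set apart by aLAG3 library 10 at 538 CPM and Ccl5 by aLAG3 library 9 at 1008 CPM, while the groups overlap for every gene.

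Ccl1, which encodes a CCR8 ligand, was counted 126, 28, 96, 42 and 23 times in untreated libraries 1 to 5. It was counted 47, 210, 41, 68, 159 and 54 times in aLAG3 libraries 6 to 11. The 159 counts of aLAG3 library 10 came from the shallowest library of all. Scaled to depth, untreated libraries 1 to 5 held 103, 92.3, 85.4, 108 and 43.1 CPM. The aLAG3 libraries 6 to 11 held 44.6, 115, 96.7, 84.4, 538 and 136 CPM. Library 10 had 538 CPM (95% Poisson interval 457 to 628), 3.95 times the next library, while the untreated libraries spanned 43.1 to 108 CPM and the other 5 aLAG3 libraries 44.6 to 136 CPM. In 3 of 6 aLAG3 libraries (7, 10 and 11) the level lay above every untreated library. The 95% Poisson intervals of libraries 7 and 11 include the highest untreated value of 108 CPM, and only that of library 10 lies above it.

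The group means of Ccl1 were 86.4 ± 25.7 CPM in the untreated libraries (SD, n = 5) against 169 ± 183 CPM in the aLAG3 libraries (SD, n = 6). The medians were 92.3 and 106 CPM. The distance between the means therefore rested on 1 library, and without library 10 the aLAG3 mean was 95.5 ± 34.5 CPM (SD, n = 5). The fitted log2 fold change of Ccl1 was 0.59 (standard error, SE, 0.38, 95% interval -0.20 to 1.37), and 0.078 (SE 0.21) without library 10. In the 6 libraries with barcode 9, which leave out library 10, the groups had 77.3 ± 31.0 CPM in the untreated libraries (SD, n = 3) against 81.5 ± 35.5 CPM in the aLAG3 libraries (SD, n = 3), and the log2 fold change was 0.030 (SE 0.27).

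Ccl1 also depended on the treatment of low-count genes, the result it was chosen by. Without a filter, 24024 genes were tested and 3 were called (0.0125%), namely 5830405F06Rik, Plac8 and Gzma. Ccl1 lay just outside the threshold there, at an adjusted p of 0.0606 from edgeR's quasi-likelihood fit, with Gzma just inside at 0.0261. With edgeR's older quasi-likelihood method and no filter, 7 genes were called (0.0291%) and Ccl1 was among them. These are the values that Ccl1 was chosen by. In the fit without a filter the estimated prior degrees of freedom were infinite, so that each gene was given the spread of the trend and not its own. The log2 fold change of Ccl1 was then 0.63, and its SE was 0.14 in place of 0.38 with the filter. Without a filter, the robust form of that fit gave an SE of 0.61, and leaving out library 10 gave a log2 fold change of 0.090.

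**Figure D2:**
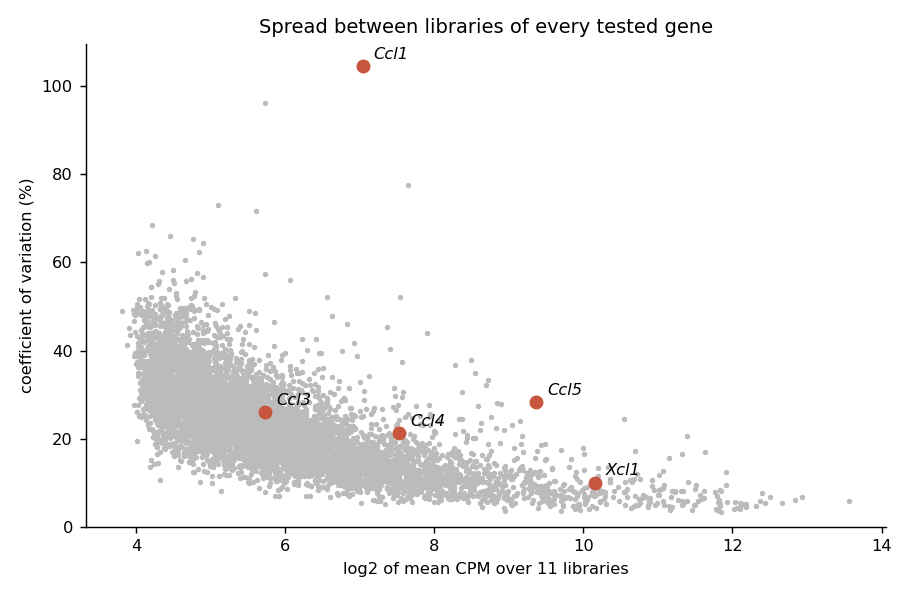
Coefficient of variation (%) of each of the 6949 tested genes over the 11 libraries against the log2 of its mean CPM, with the 5 chemokine genes in red and the other genes in grey. Ccl1 lies at 105%, above every other tested gene, and Ccl5 lies above the genes of its level at 28.4%.

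The spread of Ccl1 between libraries was the largest of all tested genes. Its coefficient of variation was 105%, where the median of 1126 genes of similar mean level (within 0.5 on the log2 scale) was 15.7%. No other tested gene had as large a ratio of its highest to its next library. Ccl1 made up 2.04% to 4.95% of the counts of the 5 genes in untreated libraries and 2.21% to 6.63% in aLAG3 libraries other than library 10, where it made up 22.4%. Both the spread and this share describe the library for which Ccl1 was picked.

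Among the 5 chemokine genes, Ccl1 was the one in which library 10 stood far from the rest, and Ccl4 was also highest there, by 1.02-fold over the next library. Compared with the median of the other libraries, its Ccl1 level was 5.69-fold higher, Ccl4 1.36-fold and Ccl3 1.06-fold higher, and Ccl5 0.922-fold and Xcl1 0.887-fold. Of the 14 tested genes of other secreted T cell cytokines, 5 were at their highest in library 10, where library 10 was the highest library for 16.2% of all tested genes. Csf2, which encodes GM-CSF and was singled out after its values were seen, had 200 CPM in library 10 and 18.03 to 66.1 CPM elsewhere, and its 5.49-fold excess over the median of the others ranked 2 among all tested genes, next to Ccl1. Among 8 tested chemokine receptors, Ccr7, Ccr8 and Cxcr6 were highest in library 10, with Ccr8, the receptor of CCL1, at 267 CPM beside 124 to 237 CPM elsewhere.

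The myeloid marker sum of library 10 was 149.9 CPM, from 47 counts, and Lyz2, Cd68, C1qa, C1qb and C1qc were each at their highest there, while Csf1r, Itgam and Adgre1 were at 0. Its summed CD8 T cell markers ranked 5 of the 11 libraries. Of the other chemokine ligand genes, 23 had reads in any library, and 7 of these were at their highest in library 10. They were Ccl2, Ccl6, Ccl7, Ccl8, Ccl9, Cxcl1 and Pf4, looked at after their values were seen, on 5 to 15 counts each. None of the 7 passed the filter, and in the shallowest library each count weighs more in CPM. Library 10 was the highest library for 16.2% of all tested genes. Ccl6 was the highest of the 7 at 50.7 CPM in library 10, beside at most 19.2 CPM elsewhere. Ccl2, Ccl9 and Cxcl1 were close to the next library, at 23.7 beside 23.1, 16.9 beside 16.5 and 16.9 beside 15.9 CPM. The part of the myeloid transcripts, and of the low depth, in the Ccl1 level of library 10 was not tested. The library title carries the same ExT number, whose meaning is not stated, as those of untreated libraries 2 and 3, whose Ccl1 levels were 92.3 and 85.4 CPM.

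**Figure D3:**
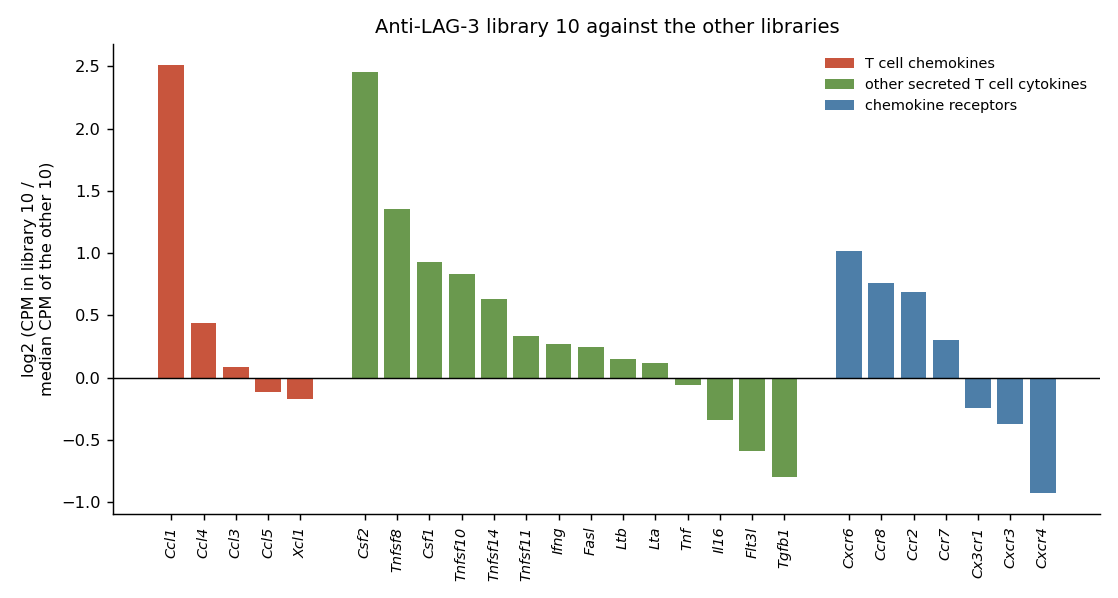
Level in aLAG3 library 10 relative to the median of the other 10 libraries (log2 ratio of CPM, bars from 0) for the 5 chemokine genes in red, the tested genes of other secreted T cell cytokines in green and 7 tested chemokine receptors in blue. Ccl1 at 2.51 and Csf2 at 2.46 stand above the rest.

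Ccl3 and Ccl4 encode closely related CC chemokines. Ccl3 was the least abundant of the 5 genes, with 66, 19, 56, 11 and 34 counts in untreated libraries 1 to 5 and 64, 121, 12, 51, 18 and 18 counts in aLAG3 libraries 6 to 11. Untreated libraries held 54.2, 62.6, 49.8, 28.2 and 63.8 CPM of Ccl3. The aLAG3 libraries held 60.7, 66.5, 28.3, 63.3, 60.9 and 45.4 CPM. Nearly the whole range of Ccl3 was thus covered in each group, and its lowest values came from untreated library 4 and aLAG3 library 8, on 11 and 12 counts.

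The group means of Ccl3 were 51.7 ± 14.4 CPM in the untreated libraries (SD, n = 5) against 54.2 ± 14.6 CPM in the aLAG3 libraries (SD, n = 6). Its log2 fold change was 0.16 (SE 0.18, 95% interval -0.22 to 0.53), and the difference of mean log2 CPM gave p = 0.751 in an exact two-sided permutation test over 462 splits, of which the smallest possible p is 0.00433. With each library left out in turn, the log2 fold change lay between 0.055 (without aLAG3 library 7) and 0.24, and it was 0.066 without untreated library 4.

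Ccl4 was counted 142, 52, 168, 76 and 117 times in untreated and 197, 344, 73, 193, 72 and 58 times in aLAG3 libraries. Untreated libraries 1 to 5 held 117, 171, 149.5, 195 and 219 CPM. The aLAG3 libraries 6 to 11 held 187, 189, 172, 240, 243 and 146 CPM. In 5 of 6 aLAG3 libraries Ccl4 lay above the untreated median, yet only libraries 9 and 10 exceeded every untreated library. The 95% Poisson intervals of both include the highest untreated value of 219 CPM.

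The means of Ccl4 were 170 ± 39.8 CPM in the untreated libraries (SD, n = 5) against 196 ± 38.3 CPM in the aLAG3 libraries (SD, n = 6), a difference smaller than the SD of either group. Its log2 fold change of 0.28 (SE 0.14, 95% interval -0.012 to 0.57) had the smallest unadjusted p of the members, 0.0596 by edgeR's quasi-likelihood test, and ranked 365 of the tested genes. The exact two-sided permutation test gave p = 0.284. With each library left out in turn, it lay between 0.13 (without untreated library 1, the lowest for Ccl4) and 0.39. Within barcode 9 it was 0.39 (SE 0.17, edgeR adjusted p = 0.969), on 3 libraries against 3, where the exact permutation test gave p = 0.3 and cannot go below 0.1.

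Because Ccl3 and Ccl4 counts come from the same library, their ratio is free of depth scaling. The Ccl4 to Ccl3 count ratio had a median of 3 in untreated (range 2.15 to 6.91) and of 3.50 in aLAG3 libraries (range 2.84 to 6.08). The highest ratio of each group came from the libraries with the 11 and 12 Ccl3 counts. Over all 11 libraries the log2 levels of Ccl3 and Ccl4 had a Pearson r of 0.22, and of 0.76 over the 6 deeper libraries of barcode 9. These values are descriptions across libraries that share depth and scaling.

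Ccl5, a ligand of CCR1 and CCR3, was counted 672, 173, 969, 352 and 410 times in untreated and 581, 957, 234, 812, 153 and 184 times in aLAG3 libraries. Untreated libraries 1 to 5 held 552, 570.2, 862, 902 and 769 CPM. The aLAG3 libraries 6 to 11 held 551, 526, 552, 1008, 517 and 464 CPM. In the aLAG3 group 5 libraries lay close together at 464 to 552 CPM and library 9 lay at 1008 CPM, the highest of all, while untreated libraries 1 and 2 lay near the 5 and libraries 3 to 5 well above them.

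The means of Ccl5 were 731 ± 163 CPM in the untreated libraries (SD, n = 5) against 603 ± 201 CPM in the aLAG3 libraries (SD, n = 6), a difference smaller than the SD of either group. Its log2 fold change was -0.26 (SE 0.15, 95% interval -0.57 to 0.054), with an exact two-sided permutation p of 0.216. Levels were below every untreated library in 4 of 6 aLAG3 libraries (6, 7, 10 and 11). The 95% Poisson intervals of libraries 6, 7 and 10 include the lowest untreated value, 552 CPM in library 1. Only that of library 11 (399 to 536 CPM) lies below this value, and it overlaps the interval of untreated library 1 (511 to 595 CPM). Without aLAG3 library 9, the aLAG3 mean was 522 ± 36.01 CPM (SD, n = 5) and the log2 fold change was -0.48 (SE 0.11), which ranked 2 of 6380 genes by p and did not pass (edgeR quasi-likelihood adjusted p = 0.63). Without that library and without a filter it passed (adjusted p = 0.000535), in the kind of fit in which a gene's own spread is not used. Within barcode 9, which holds library 9, the log2 fold change was -0.084 (SE 0.19).

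Ccl5 varied more than other genes of its level. Its coefficient of variation of 28.4% was the highest among 167 tested genes of similar mean level, whose median was 8.90%. Library 9 had a low myeloid marker sum (23.6 CPM, the lowest of the aLAG3 libraries). Its 6 NK cell marker genes summed to 39.01 CPM, the highest of the aLAG3 libraries (from 21.6 CPM) and within the untreated range of 25.5 to 49.6 CPM. Eomes and Tyrobp held 166 and 114 of the 299 counts of this list over all libraries, so the sum rests mostly on these genes. Of the other NK cell markers, Klrb1c had 13 counts and Klra4 had 5. Ncr1 had 1 count over all libraries, which lay in library 9, and Klra8 was at 0 in every library. The part of other cells in the Ccl5 level of library 9 was not tested.

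**Figure D4:**
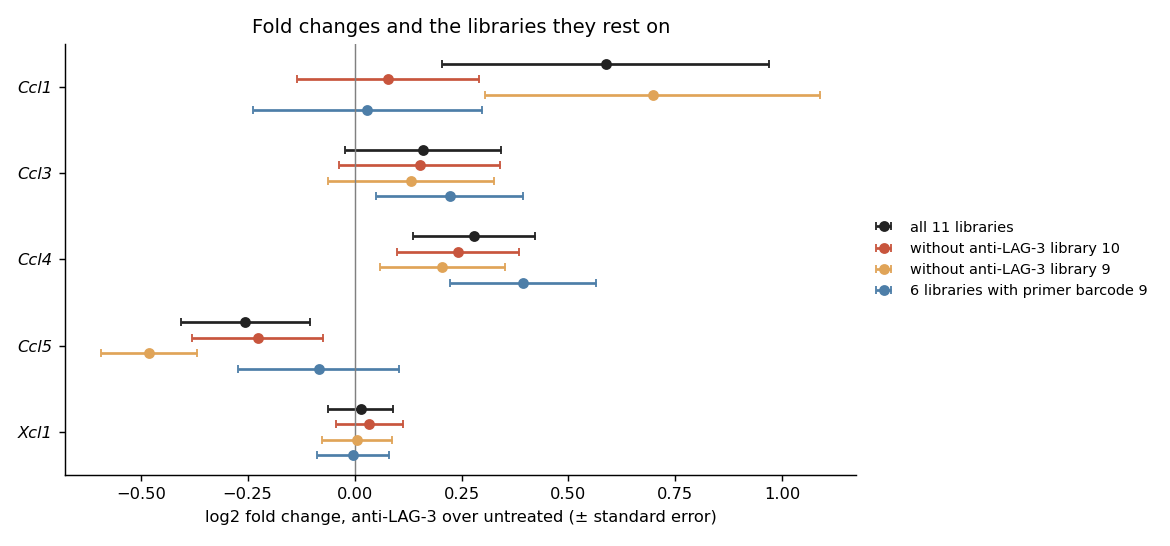
Log2 fold change of aLAG3 over untreated for each chemokine gene (points, horizontal bars ± 1 standard error from edgeR's quasi-likelihood fit) with all 11 libraries, without aLAG3 library 10, without aLAG3 library 9, and within the 6 libraries of primer barcode 9. Ccl1 moves from 0.59 to 0.078 without library 10, and Ccl5 from -0.26 to -0.48 without library 9.

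Xcl1, the XCR1 ligand, was the most abundant and the most even of the 5 genes. It was counted 1539, 295, 1441, 437 and 544 times in untreated and 1237, 2247, 428, 946, 308 and 501 times in aLAG3 libraries. Untreated libraries 1 to 5 held 1264, 972, 1282, 1119 and 1020.4 CPM, and aLAG3 libraries 6 to 11 held 1174, 1234, 1009.8, 1174, 1042 and 1263 CPM. All aLAG3 values lay within the untreated range.

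The means of Xcl1 were 1132 ± 140 CPM in the untreated libraries (SD, n = 5) against 1149.6 ± 102 CPM in the aLAG3 libraries (SD, n = 6). Its log2 fold change was 0.014 (SE 0.077, 95% interval -0.14 to 0.17), with an exact two-sided permutation p of 0.779. The sign of so small a value turned with the barcode as a covariate (-0.0063) and within barcode 9 (-0.0031). Its interval was the narrowest of the 5 genes, and its coefficient of variation of 10.0% lay beside a median of 7.70% over 90 genes of similar mean level.

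The 5 genes did not move as a block over all 11 libraries. Of the 10 pairs, the highest Pearson r of log2 levels over 11 libraries was 0.34 for Ccl4 with Ccl5, and the lowest was -0.49 for Ccl4 with Xcl1. Over the 6 deeper libraries of barcode 9 the values reached further, from -0.67 for Ccl4 with Xcl1 to 0.77 for Ccl1 with Xcl1. The tested genes most like Ccl1 over the 11 libraries were Xlr4b (r = 0.95), Rbpj (0.94) and Fam98c (0.91). Rbpj encodes the DNA-binding partner of Notch, and its r with Ccl1 was 0.87 over the 10 libraries without library 10. For Ccl3 the nearest genes were Rassf5 (r = 0.95), Ddx49 (0.93) and Ms4a6d (0.92), and for Ccl4 they were Fyb (0.88), Mre11a (0.87) and Mylip (0.84). Those of Ccl5 were Helz2 (0.88), Prkcq (0.86) and Bloc1s1 (0.85), and those of Xcl1 were 2310022A10Rik (0.92), Itga4 (0.89) and Eif4a1 (0.89). These are the highest values of 6948 genes over 11 points, given as descriptions.

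Receptors of the 5 ligands were unevenly present in the sorted cells. Ccr8, the receptor of CCL1, had 1442 counts over all libraries and 163 ± 44.7 CPM in the untreated libraries (SD, n = 5) against 184 ± 51.2 CPM in the aLAG3 libraries (SD, n = 6), with a log2 fold change of 0.18 (SE 0.16). It was 0.051 without aLAG3 library 7, 0.11 without aLAG3 library 10 or untreated library 5, 0.27 without untreated library 2 and 0.29 without aLAG3 library 6. Ccr1 had 12 counts, Ccr3 had 5 and Xcr1 had 36 over all 11 libraries, below the filter.

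Of 22 chemokine receptor genes looked for, 20 were in the table, 8 passed the filter and 0 passed the test, 1 at an unadjusted p under 0.05. That gene was Cxcr4, the CXCL12 receptor, at 72.7 ± 9.74 CPM in the untreated libraries (SD, n = 5) against 50.8 ± 14.6 CPM in the aLAG3 libraries (SD, n = 6), with a log2 fold change of -0.40 (SE 0.17, edgeR adjusted p = 0.998). Without aLAG3 library 7 it was -0.69. Ccr2, the next by p, had a log2 fold change of -0.47 (SE 0.27), which was -0.16 without untreated library 1 and -0.72 without untreated library 3. Of 29 other chemokine ligand genes only Cxcl10, an interferon-induced ligand of CXCR3, passed the filter, with a log2 fold change of -0.098 (SE 0.23), which lay between -0.34 (without aLAG3 library 9) and 0.028 (without aLAG3 library 6) with a library left out. The other 28 did not pass the filter.

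Of 24 genes of other secreted T cell cytokines, 14 passed the filter and 0 passed the test (1 at an unadjusted p under 0.05), with 11 log2 fold changes above 0 and a median of 0.10. Csf1, which encodes macrophage colony-stimulating factor, had the smallest p of the list, at 51.1 ± 9.63 CPM in the untreated libraries (SD, n = 5) against 81.1 ± 22.6 CPM in the aLAG3 libraries (SD, n = 6). Its log2 fold change of 0.61 (SE 0.17, edgeR adjusted p = 0.998) was 0.56 without library 10 and 0.57 within barcode 9. Lta, which encodes lymphotoxin alpha, had a log2 fold change of 0.34 (SE 0.21). Of 24 regulators of chemokine transcription, 21 passed the filter and 0 passed the test (2 at an unadjusted p under 0.05), with a median of -0.014. The smallest p were those of Egr1, an immediate early gene of T cell receptor signaling, with a log2 fold change of 0.56 (SE 0.20, edgeR adjusted p = 0.998), and of Rela, an NF-κB subunit, with -0.28 (SE 0.13), which was -0.16 without untreated library 3.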

How the data were processed

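Libraries were prepared by the authors with oligo-dT bead reverse transcription, template switching and PCR, 1 library per mouse. Per the methods and the processing notes, reads were trimmed with Cutadapt (4.1 in the notes), mapped with Bowtie2 (2.4.5 in the notes) to reference RNA of GRCm38 and counted per gene, and the deposited values are these raw counts, whose strand setting and treatment of multiply mapped reads are not given in the sources used here. The 11 columns were matched to samples by title, and groups came from the treatment label.

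Here edgeR's filterByExpr kept genes reaching the equivalent of 10 counts in a library of median depth in 5 libraries, and 15 counts in total, and these were scaled by TMM and tested with the quasi-likelihood method of edgeR 4.0.16 in R 4.3.3 with Benjamini-Hochberg adjustment over all tested genes at 0.05. The quasi-likelihood test took the place of the study's likelihood ratio test, which was kept as an alternative with DESeq2 1.42.0, other scalings, filters, the barcode and libraries left out. Correlations used log2 CPM with a prior count of 2. Marker sums used total counts. The fits were tested on simulated data. Total counts from 313524 to 1901374 limit low genes.

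The members and lists were chosen with earlier results of these data known. Genes named are the members, their receptors, the 2 genes of smallest p per list, the 3 most correlated genes per member and the genes called without a filter. No label pairs the groups. Some genes that fall under this rule or mark the sort are not reported here.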

Additional observations from a re-analysis of the deposited data

Results flagged for a closer look

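In the aLAG3 group, Ccl5 was highest in library 9 at 1008 CPM (812 counts), apart from the other 5 libraries at 464 to 552 CPM by Dixon's criterion, on the log2 CPM scale and on the CPM scale, the latter added after seeing the data. It was 1 of 8 sets of values (Ccl3, Ccl4, Ccl5 and Xcl1 in each group), of which chance singles out about 0.4.

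Ccl1 was chosen by its spread between these libraries, so its values are a description, and the criterion and its chance rate are no test of them. Ccl1 was highest in aLAG3 library 10 at 538 CPM, with the other 5 aLAG3 libraries at 44.6 to 136 CPM. In the untreated group it was lowest in library 5 at 43.1 CPM (23 counts), with the other 4 libraries at 85.4 to 108 CPM. The first of these passes the criterion on the CPM scale only, and the second on the log2 scale only.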

How the results depend on the processing

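The 13 other tests, scalings, filters and barcode settings gave each of Ccl1, Ccl3, Ccl4 and Ccl5 the same direction and no call, with log2 fold changes of 0.030 to 0.95, 0.064 to 0.27, 0.21 to 0.39 and -0.30 to -0.084. Xcl1 turned to -0.0063 with the barcode as a covariate and to -0.0031 within barcode 9. Fits that combine the lack of a filter with another setting were chosen after seeing the data. Of these, edgeR's older quasi-likelihood method called Ccl1 with a log2 fold change of 0.71. The cause of these turns was not tested.

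With each library left out, with and without a filter, the log2 fold change lay between 0.078 and 0.86 for Ccl1, -0.48 and -0.18 for Ccl5, -0.047 and 0.069 for Xcl1, and, with the filter only, -0.34 and 0.028 for Cxcl10. With the filter no member was called. Without it, Ccl1 was called in 5 of 11 such fits (without untreated library 1 or aLAG3 libraries 6, 7, 8 or 9) and Ccl5 in 1. The fits without a filter called 0 to 11 genes each and do not use a gene's own spread. Ccl1 was chosen by its result without a filter, so its calls there are no test of it. Without aLAG3 library 10 it was not called.

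The number of genes called rose from 0 to 3 without a filter, and without a filter was 7 by the older quasi-likelihood method, 2 by the likelihood ratio test, 2 by the robust fit, 3 with other dispersions, 3 with the barcode and 0 by DESeq2 (275 at an unadjusted p under 0.05). With a library left out it was 0 to 11, and at most 1 with the filter (C2cd4b, without aLAG3 library 7). No paired analysis was possible because the groups share no replicate number. Depth limits the precision of Ccl3, which rests on 11 to 121 counts per library.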
